A study of Mus musculus with 15 samples.

Results

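The C/EBP family comprises the bZIP transcription factors Cebpa, Cebpb, Cebpd, Cebpe and Cebpg, and its 5 members were selected by gene symbol from the 19938 genes measured. Expression was measured on mouse whole-transcript Affymetrix arrays, which report a hybridisation signal for each gene, in 6 groups of sorted bone marrow cells made of 3 genotypes at 2 stages. The earlier stage was the common dendritic cell progenitor (CDP), and the later stage was a cell with an intermediate level of the receptor Kit that carried green fluorescent protein from the Zbtb46 locus (Zbtb46-GFP+), a gene switched on in cells committed to the classical dendritic cell lineage. The CDP groups held 2 arrays per genotype and the Zbtb46-GFP+ groups 3. The genotypes were wild type (WT), Batf3 KO and Id2 KO. All 6 groups came from animals with the Zbtb46-GFP reporter. The labels describe the WT and Id2 KO source animals as chimeric and the Batf3 KO animals as reporter mice, so the effect of Batf3 loss and that of the kind of animal cannot be told apart. The labels used here give no strain, age or sex, do not say what cells a chimeric host retained, and do not say whether arrays of a group came from separate animals, so p-values measure the spread between arrays, which may be technical.

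C/EBP proteins bind DNA as dimers through a basic region followed by a leucine zipper, and the zipper lets them pair with each other and with other bZIP proteins. In the marrow C/EBPα is needed for the passage from early myeloid progenitors to granulocyte and monocyte progenitors, C/EBPβ acts in macrophages and in the rapid production of neutrophils during infection, and C/EBPδ is an inflammation-induced factor. C/EBPε acts late in the neutrophil lineage and drives the genes of the secondary granules, and C/EBPγ lacks an activation domain and pairs with ATF4 in the control of amino acid and stress genes. Dendritic cells arise from the same myeloid progenitors, under the transcription factor IRF8 among others.

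RefSeq promoter windows of 3 of the 5 members were matched, and the 250 bases before the annotated start site are shown so that the letters a C/EBP dimer could meet at the family's own genes can be read. The windows of Cd177, a neutrophil surface protein, Fcnb, a granule lectin, and Prtn3, a granule protease, are shown beside them as windows with and without matches, chosen after the matches were seen from the 6 granule genes higher in Id2 KO than in WT Zbtb46-GFP+ cells. Capitals mark matches to the C/EBP core TTNNGNAA or to the half-site TTGCG, searched on both strands, so that the reverse forms TTNCNNAA and CGCAA count as well. The sequences are from RefSeq on GRCm38.p6 and run 5′ to 3′ towards the gene.
Cebpa, chr7:35119043-35119292, plus strand: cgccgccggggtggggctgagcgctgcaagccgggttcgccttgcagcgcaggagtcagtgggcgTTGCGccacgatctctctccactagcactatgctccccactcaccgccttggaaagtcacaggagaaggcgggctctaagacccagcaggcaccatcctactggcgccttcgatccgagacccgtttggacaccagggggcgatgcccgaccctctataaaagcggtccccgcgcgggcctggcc
Cebpb, chr2:167688665-167688914, plus strand: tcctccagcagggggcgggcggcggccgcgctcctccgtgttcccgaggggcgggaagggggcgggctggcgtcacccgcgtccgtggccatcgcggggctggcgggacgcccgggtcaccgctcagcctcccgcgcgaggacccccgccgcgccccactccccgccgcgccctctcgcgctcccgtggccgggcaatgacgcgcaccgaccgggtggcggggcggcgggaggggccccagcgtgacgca
Cebpg, chr7:35056567-35056816, minus strand: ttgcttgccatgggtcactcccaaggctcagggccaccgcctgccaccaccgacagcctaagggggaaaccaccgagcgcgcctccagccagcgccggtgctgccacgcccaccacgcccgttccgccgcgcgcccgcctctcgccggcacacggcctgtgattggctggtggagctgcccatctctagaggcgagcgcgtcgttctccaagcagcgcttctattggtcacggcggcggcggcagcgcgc
Cd177, chr7:24760312-24760561, minus strand: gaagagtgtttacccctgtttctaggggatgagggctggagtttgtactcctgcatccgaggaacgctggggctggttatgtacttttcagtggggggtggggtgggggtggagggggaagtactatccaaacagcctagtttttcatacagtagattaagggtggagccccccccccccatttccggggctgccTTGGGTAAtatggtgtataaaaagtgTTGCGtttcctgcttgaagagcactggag
Fcnb, chr2:28084879-28085128, minus strand: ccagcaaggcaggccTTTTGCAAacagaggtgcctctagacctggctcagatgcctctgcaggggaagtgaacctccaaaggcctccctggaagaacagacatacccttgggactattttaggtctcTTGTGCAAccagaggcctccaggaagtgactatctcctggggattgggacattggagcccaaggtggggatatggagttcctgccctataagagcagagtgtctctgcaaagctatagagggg
Prtn3, chr10:79879417-79879666, plus strand: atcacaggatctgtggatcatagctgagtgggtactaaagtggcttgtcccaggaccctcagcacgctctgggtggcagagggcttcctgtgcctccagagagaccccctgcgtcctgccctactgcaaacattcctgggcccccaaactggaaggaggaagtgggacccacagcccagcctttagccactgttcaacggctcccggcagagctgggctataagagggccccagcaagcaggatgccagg
The Cebpa window held 1 half-site, beginning 185 bases before the start site, and no core. The Cebpb and Cebpg windows held neither pattern. Cd177 held 1 core, TTGGGTAA, 55 bases before the start and 1 half-site 29 bases before it. Fcnb held 2 cores, TTTTGCAA at 235 and TTGTGCAA at 123 bases. Of the 6 granule genes, 3 (Cd177, Fcnb and Ms4a3) held a core, and Prtn3, Elane and Ctsg held neither pattern. Among all 32851 mouse windows of the same length, 36.8% held the core and 14.5% the half-site, so that a match in a single window is common, and it describes the letters only. The member windows were rich in G and C (66.4% in Cebpa, 81.6% in Cebpb and 70.8% in Cebpg) against a median of 52.4%, whereas Cd177 had 53.2%, Fcnb 54.0% and Prtn3 60.4%. Promoter entries for Cebpd and Cebpe were not matched.

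Each member was measured by 1 probe set. RefSeq places Cebpa and Cebpg on chromosome 7, with the gene model Gm45095 between them in gene order, Cebpb on chromosome 2, Cebpd on chromosome 16 and Cebpe on chromosome 14. Levels are given as log2 of the deposited signal, and levels of different probe sets are not compared. The table holds no measure of background, so whether a level lies above background was not tested.

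The 3 arrays numbered replicate 1 of the Zbtb46-GFP+ groups were on another scale, with a median signal of 23.8 to 24.1 against 100.8 to 112.1 on the other 12, and their values are given apart. Comparisons rest on those 12 arrays, 2 per group. The WT arrays among them had Xist at 12.10 to 12.41 in the group means and the knockout groups at 5.35 to 5.57, while the Y-linked Kdm5d ran the other way, so that sex and genotype cannot be told apart in the knockout comparisons. Batf3 rose from 7.14 in WT CDP to 9.92 in WT Zbtb46-GFP+ cells and was at 7.11 and 7.10 in the Batf3 KO groups. Id2 stood at 6.52 and 8.61 in the Id2 KO groups against 7.54 and 11.74 in WT. A list of 8 classical dendritic cell genes had a mean log2 signal of 7.61 to 7.91 in the CDP arrays and 11.36 to 11.97 in the Zbtb46-GFP+ arrays of all 3 genotypes. The Zbtb46 transcript itself was at 7.08 in WT Zbtb46-GFP+ cells but at 6.0 and 6.02 in the Batf3 KO and Id2 KO ones, level with the 6.0 of WT CDP.

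Cebpe was the member that passed the test (limma, Benjamini-Hochberg adjusted over all 19938 genes, adjusted p below 0.05), and it did so in 3 of the 10 comparisons. It rose from CDP to Zbtb46-GFP+ cells in both knockouts, and it was higher in Id2 KO than in WT Zbtb46-GFP+ cells. Cebpa, Cebpb, Cebpd and Cebpg passed in none. The members called were 1 of 5 in the Batf3 KO stage step, where 7.18% of all genes were called, 1 of 5 in the Id2 KO stage step (6.82%) and 1 of 5 for Id2 KO against WT in Zbtb46-GFP+ cells (1.81%). None were called in the WT stage step (11.1% of genes), in Batf3 KO or Id2 KO against WT in CDP (0.0502% and 0.0251%), in Batf3 KO against WT in Zbtb46-GFP+ cells (0.336%), between the Zbtb46-GFP+ cells of the knockouts (0.592%), or in the interactions of Batf3 KO and Id2 KO with stage (0.0953% and 0.321%). At an unadjusted limma p below 0.05 these counts of 0 became 2 (Cebpb and Cebpe) in the WT stage step, 0 in both CDP comparisons and in the Batf3 KO interaction, and 1 (Cebpe) in each of the other three. Over all 19938 genes that limit was passed by 4502 in the WT stage step, 257 and 126 in CDP, 383 in the Batf3 KO interaction, and 887, 1082 and 960 in the other three (Batf3 KO against WT, the comparison of the knockouts and the Id2 KO interaction). The span between the lowest and highest group mean was 1.61 log2 units for Cebpe, 0.59 for Cebpb, 0.56 for Cebpd, 0.44 for Cebpg and 0.16 for Cebpa.

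**Figure D1:**
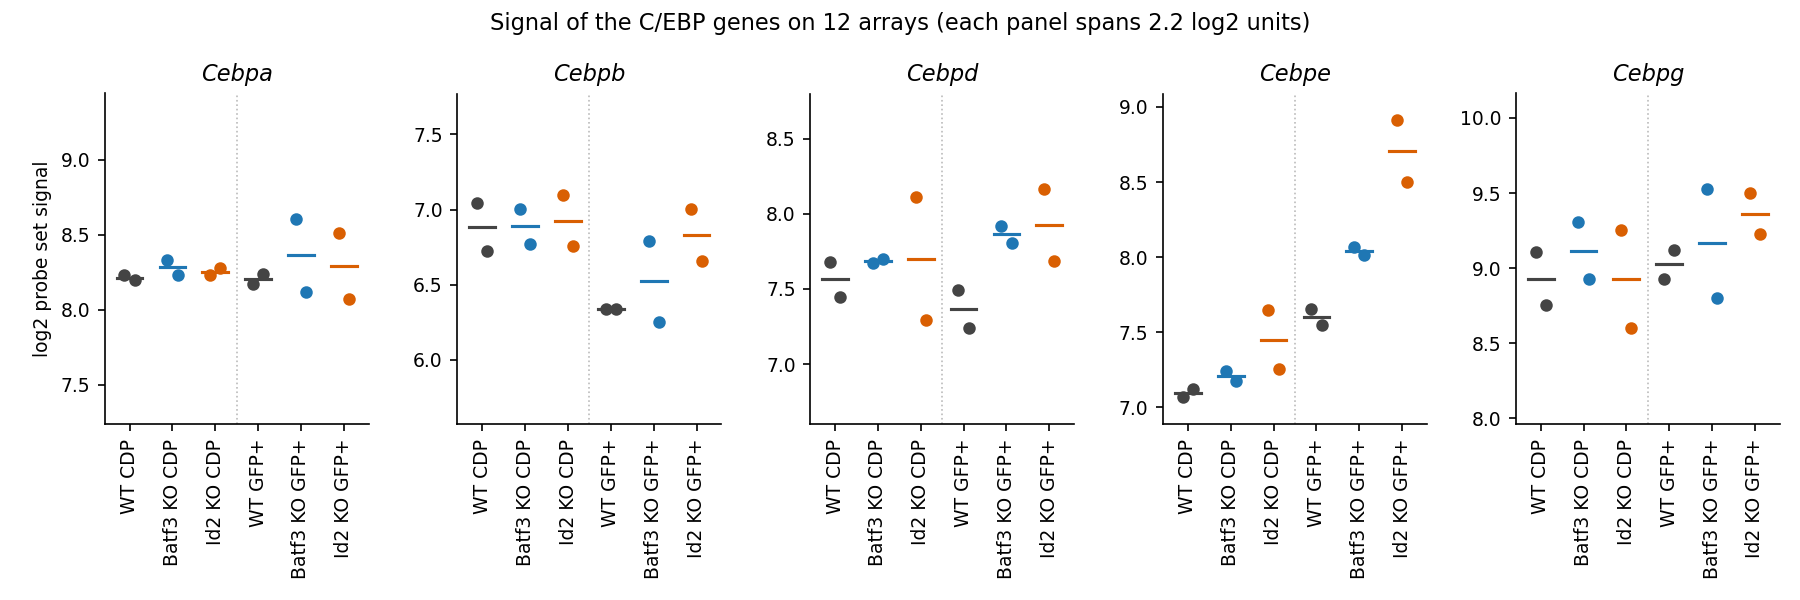
Log2 signal of each C/EBP member on the 12 arrays of the 6 groups, with 1 point per array and a bar at the group mean. The Cebpe groups span 1.61 log2 units between WT CDP and Id2 KO Zbtb46-GFP+ cells, and the Cebpa groups 0.16.

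Cebpe, the factor of late neutrophil maturation, was at 7.07 and 7.13 on the WT CDP arrays and at 7.66 and 7.55 on the WT Zbtb46-GFP+ arrays. In Batf3 KO it was at 7.24 and 7.17 in CDP and at 8.07 and 8.02 in Zbtb46-GFP+ cells. In Id2 KO it was at 7.65 and 7.25 in CDP and at 8.91 and 8.50 in Zbtb46-GFP+ cells. In every genotype both Zbtb46-GFP+ arrays were above both CDP arrays, and the Zbtb46-GFP+ arrays of the 3 genotypes did not overlap, with WT lowest and Id2 KO highest. Both CDP arrays of either knockout also lay above those of WT. Such non-overlap between stages was seen for 44.3% of genes in WT, 44.8% in Batf3 KO and 41.7% in Id2 KO. Between genotypes it was seen in Zbtb46-GFP+ cells for 24.3% of genes (Batf3 KO against WT), 35.2% (Id2 KO against WT) and 32.3% (Id2 KO against Batf3 KO), and in CDP for 18% and 13.1% (Batf3 KO and Id2 KO against WT).

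The Cebpe difference between the stages was 1.25 log2 units in Id2 KO (2.39-fold, 95% interval 0.89 to 1.62, limma adjusted p = 0.00117) and 0.83 in Batf3 KO (1.78-fold, interval 0.47 to 1.20, adjusted p = 0.0109). In WT it was 0.51 (1.42-fold, interval 0.14 to 0.87) and missed the threshold, with an adjusted p of 0.0824 from limma. Under 5 of the 21 alternative settings, where 2193 to 4829 genes were called against 2212, the WT step did pass (0.51 to 0.64, adjusted p from 0.0188 to 0.0481 by limma, a term for the 3 arrays, blocks for replicate number and for array brightness, centring and quantile normalisation). Id2 KO exceeded WT in Zbtb46-GFP+ cells by 1.1 (2.15-fold, 95% interval 1.67-fold to 2.77-fold, limma adjusted p = 0.0064). Batf3 KO stood 0.44 above WT there, with an adjusted p of 0.822, and Id2 KO stood 0.66 above Batf3 KO, with an adjusted p of 0.180. In CDP the knockouts were 0.11 (Batf3 KO) and 0.35 (Id2 KO) above WT, the latter with an interval of -0.01 to 0.72. Whether the stage step itself differed from WT was tested as an interaction, which gave 0.75 for Id2 KO (limma adjusted p = 0.468) and 0.33 for Batf3 KO (adjusted p = 1.00). A larger Cebpe step in the knockouts than in WT was therefore not shown. Ordered by mean, Cebpe went from 7.10 in WT CDP through 7.21 in Batf3 KO CDP, 7.45 in Id2 KO CDP, 7.60 in WT Zbtb46-GFP+ and 8.04 in Batf3 KO Zbtb46-GFP+ to 8.70 in Id2 KO Zbtb46-GFP+ cells. No tested pair of neighbours in this order passed, and the arrays of Id2 KO CDP and WT Zbtb46-GFP+ overlapped.

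With 2 arrays a group, some of these calls rested on single arrays. The Batf3 KO stage step kept its size (0.80 to 0.87) but lost the call when any of its own 4 arrays was left out, with adjusted p from 0.0610 to 0.0782 by limma. Id2 KO against WT in Zbtb46-GFP+ cells lost the call without Id2 KO replicate 2, at 0.90 and an adjusted p of 0.0848. The Id2 KO stage step was called under each of the 12 omissions, at 1.05 to 1.46.

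**Figure D2:**
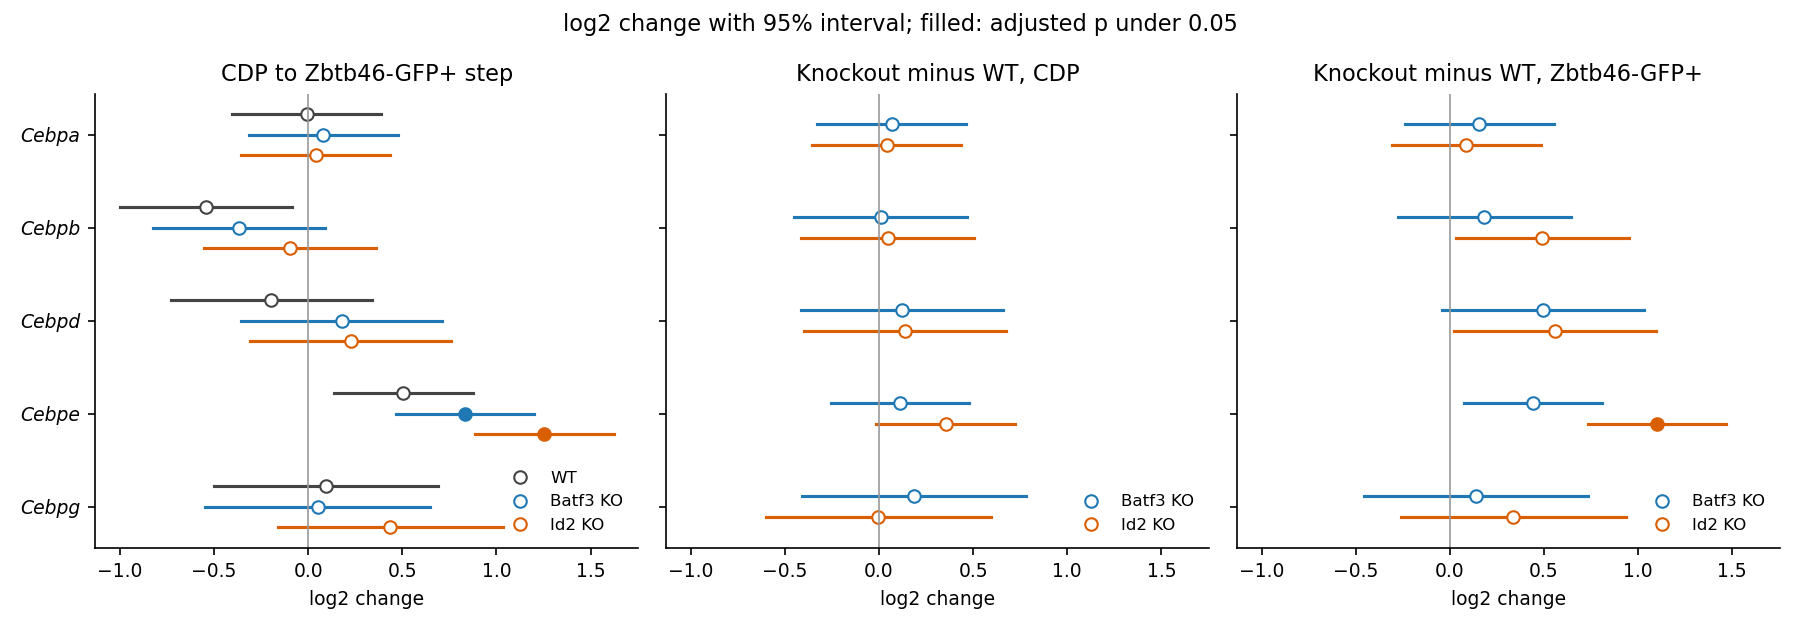
Log2 difference of each C/EBP member between the stages and between each knockout and WT in CDP and in Zbtb46-GFP+ cells, on 12 arrays, with points at the limma estimate, filled where the adjusted p passed, and bars for the 95% interval. The Cebpe intervals exclude 0 in all 3 stage steps, and the adjusted p passed in Batf3 KO and Id2 KO.

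**Figure D3:**
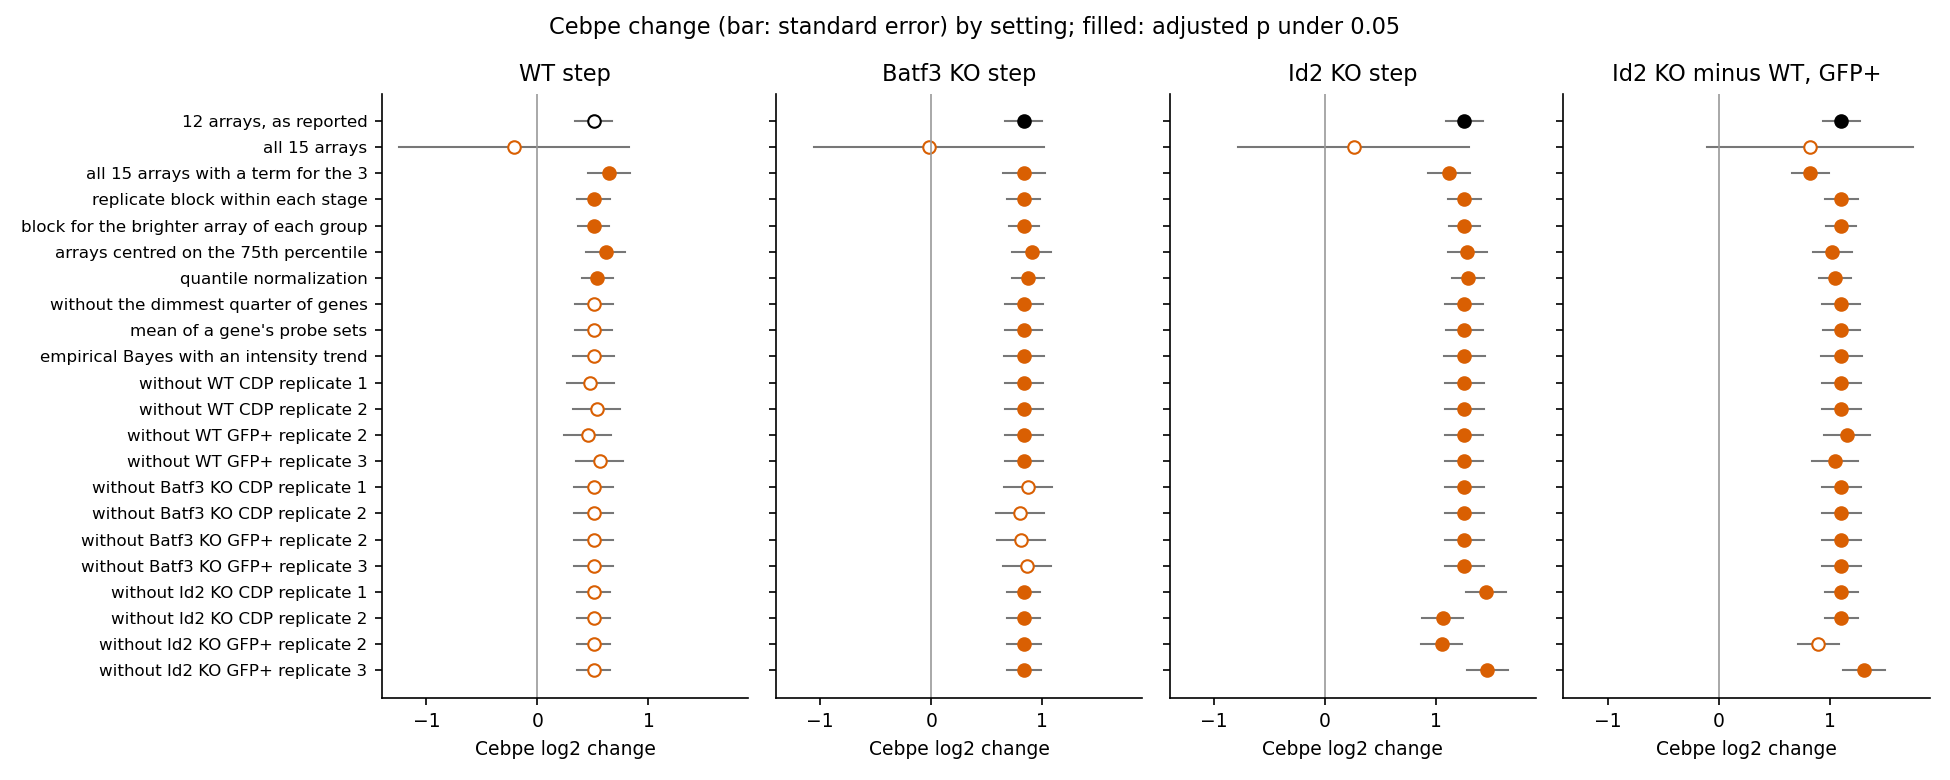
Cebpe log2 difference in its main comparisons under each alternative setting of the analysis, with 1 point per setting (filled where the adjusted p passed) and a bar for the standard error. With all 15 arrays fitted together on their differing scales the Batf3 KO stage step turns to -0.0206, and the omission of single arrays keeps it at 0.80 to 0.87.

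The mean signal of neutrophil markers rose with Cebpe from CDP to Zbtb46-GFP+ cells in each genotype. In Zbtb46-GFP+ cells both were higher in Id2 KO than in WT. In CDP, Batf3 KO had Cebpe 0.11 above WT but a median marker difference of -0.41, with 3 of the 12 markers above 0. The 12 neutrophil markers, all measured, had a mean log2 signal of 7.96 to 8.94 in WT CDP, 7.74 to 8.47 in Batf3 KO CDP and 8.26 to 9.70 in Id2 KO CDP. In Zbtb46-GFP+ cells the mean was 9.03 to 9.41 in WT, 9.31 to 10.08 in Batf3 KO and 10.48 to 10.59 in Id2 KO. Their summed signal was 17909 to 20518 in WT, 23277 to 33817 in Batf3 KO and 45929 to 47850 in Id2 KO Zbtb46-GFP+ cells. Of the 12, limma called 0 higher in the WT stage step, 7 in Batf3 KO, 6 in Id2 KO and 2 for Id2 KO against WT in Zbtb46-GFP+ cells. Of all genes, 4.71%, 3.87%, 3.84% and 1.09% were called higher in that order. None of the 12 was called in the interaction of either knockout with stage, so a larger rise than in WT was not shown. Over the 12 arrays, which share the stage difference and pair 1 signal with a mean of others from the same array, Pearson's r of Cebpe with the marker mean was 0.89, against 0.71 for Cebpg, 0.56 for Cebpd, 0.29 for Cebpa and 0.03 for Cebpb.

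Plasmacytoid dendritic cell markers were also higher in Id2 KO Zbtb46-GFP+ cells. That list of 9 genes had a mean log2 signal of 10.05 to 10.35 there against 8.21 to 8.82 in WT. Of the 9, 6 were called higher, against 1.09% of all genes, and the list's r with Cebpe was also 0.89. Cebpe had an r of 0.74 with the classical dendritic cell list and 0.69 with monocyte and macrophage markers. For the remaining marker lists r ran from -0.52 to 0.53. In Id2 KO Zbtb46-GFP+ cells the 10 basophil, mast cell and eosinophil markers summed to 2384 to 3112 against 686 to 1288 in WT, with 1 called higher. The part of these cell types in the Cebpe result was not tested. In sorted populations measured in bulk, more cells of a type and more RNA per cell cannot be told apart.

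**Figure D4:**
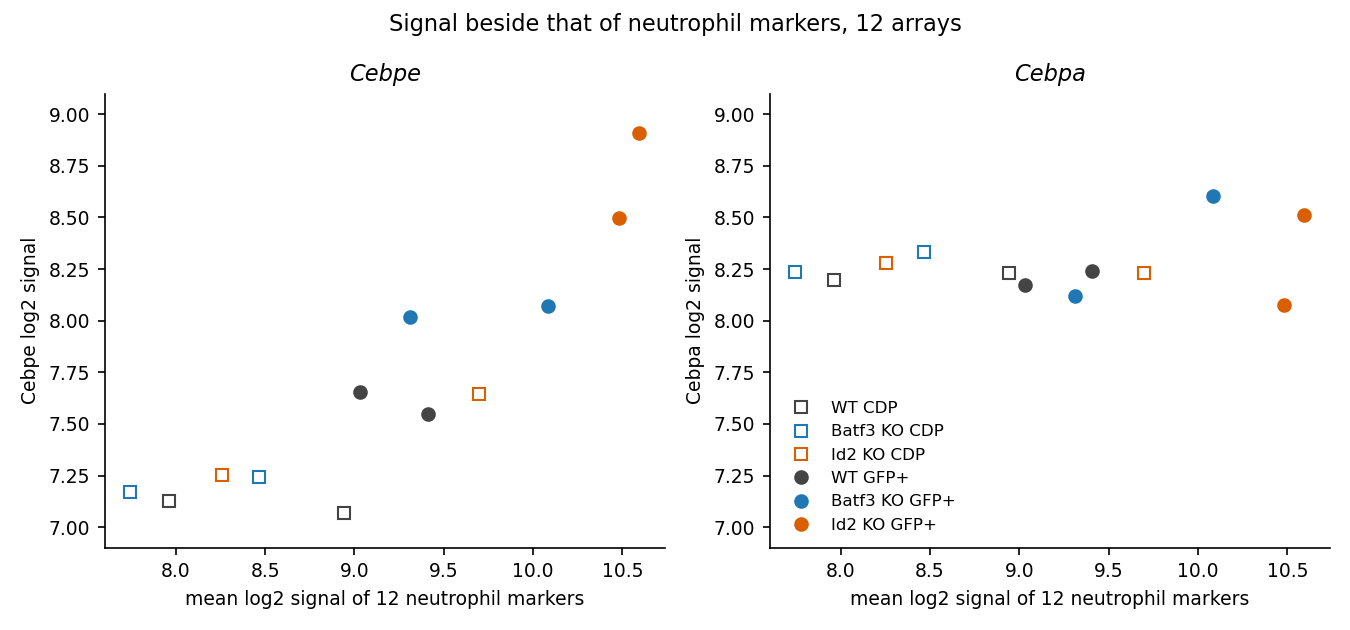
Log2 signal of Cebpe (left) and of Cebpa (right) on the 12 arrays against the mean log2 signal of the 12 neutrophil markers, with 1 point per array. Cebpe lies highest on the Id2 KO Zbtb46-GFP+ arrays, where the marker mean is 10.48 to 10.59.

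Cebpa, the factor required for early granulocyte and monocyte progenitors, was at 8.23 and 8.20 on the WT CDP arrays and at 8.17 and 8.24 on the WT Zbtb46-GFP+ arrays. It was at 8.33 and 8.23, then 8.61 and 8.12, in the CDP and Zbtb46-GFP+ arrays of Batf3 KO, and at 8.23 and 8.28, then 8.51 and 8.08, in those of Id2 KO. Both CDP pairs of the knockouts lay just above the WT CDP pair without overlap, the other groups compared overlapped, and the knockout Zbtb46-GFP+ pairs were the most widely spread. Of all genes, 18% (Batf3 KO) and 13.1% (Id2 KO) did not overlap with WT in CDP. The stage step was -0.01 in WT with a 95% interval of -0.40 to 0.39, 0.08 in Batf3 KO and 0.04 in Id2 KO. In Zbtb46-GFP+ cells Batf3 KO was 0.16 and Id2 KO 0.09 above WT.

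Cebpb, which acts in macrophages and in the neutrophil response to infection, was at 7.04 and 6.72 in WT CDP and at 6.34 on both WT Zbtb46-GFP+ arrays. Batf3 KO had 7.01 and 6.77 in CDP and 6.79 and 6.25 in Zbtb46-GFP+ cells, and Id2 KO had 7.10 and 6.76, then 7.0 and 6.66. WT Zbtb46-GFP+ lay below WT CDP and below Id2 KO Zbtb46-GFP+ without overlap, as 44.3% and 35.2% of all genes did in either direction. The Batf3 KO arrays overlapped with WT. The WT stage difference was -0.54 (interval -1.0 to -0.08, limma adjusted p = 0.140), that of Batf3 KO -0.37 (adjusted p = 0.434) and that of Id2 KO -0.10. Id2 KO stood 0.49 above WT in Zbtb46-GFP+ cells (interval 0.03 to 0.95, adjusted p = 0.465 by limma). Both CDP differences from WT were 0.05 or less. Cebpb was higher on the array of each pair with the higher 75th percentile in 6 of 6 groups, with a median difference of 0.33, and a limma fit with that rank as a block called the WT stage difference (-0.54, adjusted p = 0.00654) and Id2 KO against WT (0.49, adjusted p = 0.0336). That block raised the calls over all genes as well, from 2212 to 4829 in the WT step and from 361 to 1212 for Id2 KO against WT.

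Cebpd, the inflammation-induced member, was at 7.68 and 7.44 in WT CDP and at 7.49 and 7.24 in WT Zbtb46-GFP+ cells. Batf3 KO had 7.67 and 7.70, then 7.92 and 7.81, and Id2 KO had 8.11 and 7.29, then 8.16 and 7.69. All 4 knockout Zbtb46-GFP+ arrays were above both WT ones, and the Id2 KO CDP pair differed by more than any mean difference between groups. Non-overlap with WT in Zbtb46-GFP+ cells was seen for 24.3% (Batf3 KO) and 35.2% (Id2 KO) of all genes. Id2 KO stood 0.56 (interval 0.02 to 1.09, limma adjusted p = 0.495) and Batf3 KO 0.50 (interval -0.04 to 1.03) above WT in Zbtb46-GFP+ cells. The stage step was -0.20 in WT, 0.18 in Batf3 KO and 0.23 in Id2 KO. In CDP the knockouts were 0.12 and 0.14 above WT.

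Cebpg, the partner of ATF4 without an activation domain, was at 9.11 and 8.75 in WT CDP and at 8.93 and 9.12 in WT Zbtb46-GFP+ cells. Batf3 KO had 9.31 and 8.92, then 9.53 and 8.80, and Id2 KO had 9.25 and 8.60, then 9.50 and 9.23. The Id2 KO Zbtb46-GFP+ arrays were above both WT ones, a non-overlap seen in either direction for 35.2% of all genes, and the other groups overlapped with WT. Id2 KO stood 0.34 above WT there, and the Id2 KO stage step was 0.44 with an interval of -0.16 to 1.03. The WT and Batf3 KO steps were 0.10 and 0.05. Like Cebpb, Cebpg was higher on the brighter array in 6 of 6 groups, with a median difference of 0.37, against 5 of 6 for Cebpa and 4 of 6 for Cebpd and Cebpe. The share of all genes higher on the brighter array is not given, so these counts are not shown to be particular to the members.

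On the 3 Zbtb46-GFP+ arrays of replicate 1, Cebpe was at 5.45 in WT, 5.48 in Batf3 KO and 5.71 in Id2 KO, in the same order as the other arrays but with 0.26 between Id2 KO and WT. Cebpb was at 4.64, 4.64 and 5.15 and Cebpd at 5.92, 6.04 and 6.06. Cebpa was at 6.85, 6.73 and 6.73, and Cebpg at 8.53, 8.53 and 8.07, where Id2 KO was the lowest. These arrays shared many values exactly: the WT and Batf3 KO ones were identical at 14927 genes (74.9%), Cebpb and Cebpg among them. On them the Batf3 KO array had the Xist level of a WT array (11.0) and the Id2 KO array did not (3.66).

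The members varied in different ways across the 12 arrays. Cebpa and Cebpg correlated at r = 0.63, Cebpd and Cebpg at 0.66, and Cebpb and Cebpe at -0.08. Within groups, as deviations from the group mean, r was 0.95 for Cebpb with Cebpg and 0.89 for Cebpd with Cebpe, so arrays of a pair differed together. The 2 deviations of each group are equal and opposite, so these values rest on 1 difference in each of the 6 groups. The genes most like each member over the 12 arrays were Plxna1 (0.97), Abca13 (0.97) and Cd177 (0.96) for Cebpe, and Ccdc163 (0.98), Blvrb (0.97) and Cep76 (0.97) for Cebpb. For Cebpd they were Svbp, Fbxl14 and Lrrc8d (all 0.90), for Cebpg Yif1a (0.95), Crk (0.95) and Vrk3 (0.94), and for Cebpa Sbk1 (0.88), Olfr478 (0.83) and Vmn1r17 (0.82). These are the highest of 19938 correlations and carry no test.

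Of 24 granule and neutrophil-lineage targets of C/EBPα and C/EBPε, 10 rose and 3 fell in the Batf3 KO stage step, 9 rose and 3 fell in the Id2 KO step, and 3 rose and 6 fell in the WT step. The list's median difference was 1.29, 0.90 and 0.35 in that order, against 0.01, 0.01 and 0.03 over all genes, while 3.87%, 3.84% and 4.71% of all genes rose and 3.32%, 2.98% and 6.38% fell. Primary granule enzymes of early granulocyte progenitors were among the genes that fell: Mpo, the myeloperoxidase (-5.02, -3.15 and -2.52 in WT, Batf3 KO and Id2 KO), and Ctsg, the protease cathepsin G (-4.71, -3.76 and -3.41). Prtn3, proteinase 3 (-3.97), and Elane, neutrophil elastase (-2.02), were also among those that fell in WT, and their knockout steps are not given here. Those that rose in the knockouts included genes of later neutrophil stages: Camp, the cathelicidin precursor, by 2.48 in Batf3 KO and 2.33 in Id2 KO, the calprotectin subunit S100a8 by 2.69 and 2.27, Fcnb by 1.92 and 2.08, and Cd177 by 1.23 and 1.61. In WT these were 1.34, 1.45, 0.74 and 0.65 and did not pass. Of the 24, 0 were called in the interaction of Batf3 KO or of Id2 KO with stage (0.0953% and 0.321% of all genes). A larger rise in the knockouts than in WT was therefore not shown for any gene of the list.

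In Zbtb46-GFP+ cells, 6 of the 24 were higher in Id2 KO than in WT and none lower (1.09% and 0.717% of all genes), with a median of 1.33 and 23 of 24 above 0. They were Elane (2.32), Ms4a3 (1.95), a marker of granulocyte and monocyte progenitors, Prtn3 (1.90), Fcnb (1.69), Cd177 (1.47) and Ctsg (1.37). Batf3 KO had 2 higher, Prtn3 (1.44) and the receptor Csf3r (1.11), where 0.11% of all genes were higher and 0.226% lower, and no gene of the list passed between Id2 KO and Batf3 KO or in CDP. Both Batf3 KO calls were lost without Batf3 KO replicate 2, with the term for the 3 arrays on another scale (limma adjusted p = 0.473 for Prtn3 and 0.430 for Csf3r) and with centring on the 75th percentile (0.0820 and 0.102), and the count was 1 without WT or Batf3 KO replicate 3 and 4 without WT replicate 2. The 6 Id2 KO calls did not all hold when single arrays were left out, and Prtn3 alone kept its call under every omission. A fit with a term for the 3 arrays on another scale brought the Id2 KO count of 6 to 2. Elane, Ms4a3 and Fcnb were among the calls lost (limma adjusted p = 0.0743, 0.170 and 0.219). The count was 18 with replicate number and 19 with array brightness as a block, while the calls over all genes went from 361 to 206 with the term and to 555 and 1212 with the blocks. Counting both directions, the 13 called in the Batf3 KO stage step became 8 without CDP replicate 2 and 7 without Zbtb46-GFP+ replicate 2, the 12 in the Id2 KO step became 5 and 6 without Zbtb46-GFP+ replicates 2 and 3, and the 9 in the WT step became 5 without CDP replicate 2 or Zbtb46-GFP+ replicate 3. The neutrophil markers above share genes with this list, and their part in these counts was not tested.

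**Figure D5:**
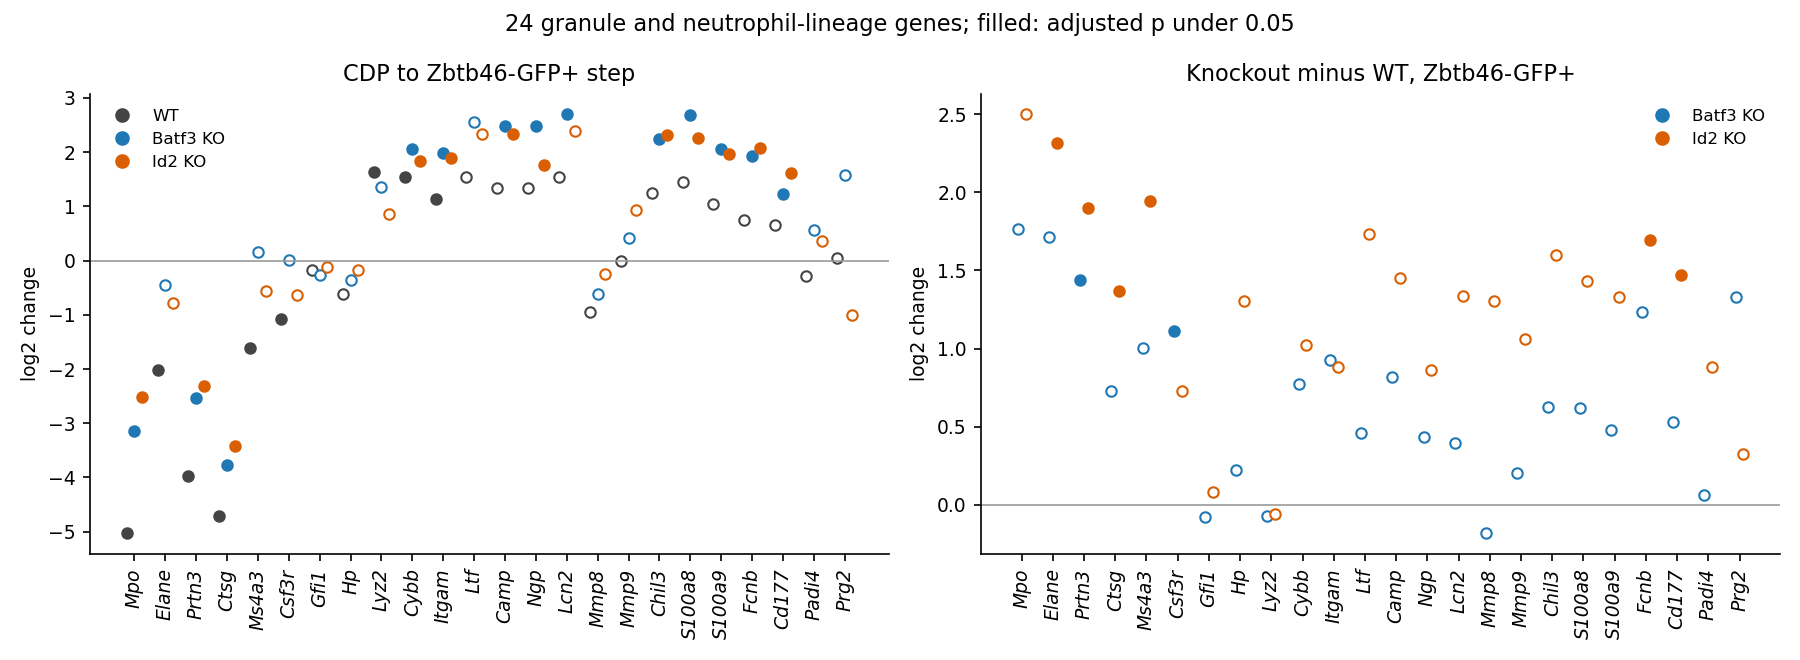
Log2 difference of the 24 granule and neutrophil-lineage targets of C/EBPα and C/EBPε between the stages (left) and between each knockout and WT in Zbtb46-GFP+ cells (right), with 1 point per gene and comparison, filled where the adjusted p passed. In Zbtb46-GFP+ cells 23 of 24 lie above 0 for Id2 KO against WT, with a median of 1.33.

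Among 16 of 17 dimer partners and related bZIP factors that were measured, 3 rose and 1 fell in the WT stage step, 2 rose and 1 fell in Batf3 KO, and 2 rose in Id2 KO. The shares of all genes, for this list and those below, were 4.71%, 3.87% and 3.84% higher and 6.38%, 3.32% and 2.98% lower. In Zbtb46-GFP+ cells 1.09% of all genes were higher and 0.717% lower in Id2 KO than in WT. Junb, a subunit of AP-1, rose in all 3 stage steps (1.36, 1.09 and 0.99), and Atf3, a stress-induced repressor, rose by 1.09 in WT and 1.30 in Batf3 KO. The Junb call in the Batf3 KO step was lost when any array of that step was left out. Nfil3, a repressor needed for several lymphoid and dendritic lineages, fell by 2.16 in WT and 1.95 in Batf3 KO and was 2.77 higher in Id2 KO than in WT Zbtb46-GFP+ cells. Batf3 differed by -1.63 in Id2 KO there, and by -2.82 in Batf3 KO, the 1 gene of the list called in that comparison. In the Id2 KO interaction with stage (0.321% of all genes called), Nfil3 (2.60, limma adjusted p = 0.0197) and Batf3 (-1.55, 0.0318) were called. In that of Batf3 KO (0.0953%), Batf3 was (-2.79, 0.000946). With the term for the 3 arrays on another scale none of these passed (limma adjusted p = 0.269, 0.910 and 0.222). With centring, Batf3 in the Id2 KO interaction did not (0.159). Between the Zbtb46-GFP+ cells of the knockouts, 0.592% of all genes were called. Nfil3 (2.43) and Batf3 (1.19), the gene deleted in Batf3 KO, were higher and Atf3 lower (-0.91) in Id2 KO than in Batf3 KO. Nfil3 kept its call under all 12 omissions. The Batf3 and Atf3 calls were lost without Batf3 KO replicate 2 or either Id2 KO array of that stage. That of Atf3 was also lost without any CDP array. Neither passed with the term for the 3 arrays (limma adjusted p = 0.258 and 0.167) or with centring (0.132 and 0.0525). The count of 2 in the Id2 KO stage step became 1 without CDP replicate 1 or 2 of Batf3 KO, CDP replicate 2 of Id2 KO or Zbtb46-GFP+ replicate 2 of Id2 KO. Atf4 and Ddit3, partners of C/EBPγ and C/EBPβ, passed in no stage step, with Atf4 at 0.04, -0.05 and 0.05.

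Regulators of C/EBP genes or proteins numbered 20, of which 1 rose and 7 fell in the WT stage step, 2 rose and 3 fell in Batf3 KO, and 2 rose and 4 fell in Id2 KO. The progenitor factors Myb (-2.28, -1.57 and -0.95), Sox4 (-2.31, -1.81 and -1.39) and Hoxa9 (-1.35, -1.07 and -1.01) fell in all 3 genotypes. Trib1, a pseudokinase that directs C/EBPα protein to degradation, and Cop1, the ubiquitin ligase it recruits, rose in Id2 KO by 0.97 and 0.65, and stood at 0.63 and 0.46 in the WT step, short of the threshold. Runx1 (1.22), Myb (1.21) and Sox4 (0.89) were higher in Id2 KO than in WT Zbtb46-GFP+ cells, of which Myb was called under all 12 omissions, Runx1 under 9 and Sox4 under 4. Of the list, 1 of these 3 was left without either Id2 KO Zbtb46-GFP+ array. In the stage steps, the 8 called in WT became 5 without CDP replicate 1 and the 6 in Id2 KO became 3 without Zbtb46-GFP+ replicate 2. Irf8, Spi1 and Gfi1, which govern the choice among dendritic, monocyte and neutrophil fates, passed in no stage step, with Irf8 at 0.10, -0.16 and 0.19.

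Of 20 inflammatory and macrophage targets of C/EBPβ and C/EBPδ, 4 rose in the WT step, 6 in Batf3 KO, 5 in Id2 KO, while Csf1r, the macrophage growth factor receptor, fell in each (-2.03, -1.50 and -0.85). The endosomal protein Cd68 rose by 1.60, 1.51 and 0.96, the nuclear receptor Nr4a1 by 1.44, 1.11 and 0.79, and the DNA sensor Tlr9 by 1.30, 1.41 and 1.24. Csf1r was the 1 gene of the list higher in Id2 KO than in WT Zbtb46-GFP+ cells (1.15). That call was lost without WT replicate 2 or either of the Id2 KO arrays. The 6 genes called in either direction in the Id2 KO stage step dropped to 1 or 2 when any of its own 4 arrays was left out, and the 7 in Batf3 KO to 4 without CDP replicate 1.

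Among 20 amino acid and oxidative stress targets shared by C/EBPγ and ATF4, 2 rose and 4 fell in the WT step, 2 rose and 2 fell in Batf3 KO, and 3 rose and 3 fell in Id2 KO. Phgdh, the first enzyme of serine synthesis, fell by 2.31, 2.17 and 1.30, and the mitochondrial serine enzyme Shmt2 by 1.47, 1.35 and 1.29. The stress-induced genes Ddit4 (1.07, 0.93 and 0.95) and Nupr1 (0.78, 1.06 and 0.81) rose in all 3. Phgdh was higher in Id2 KO than in WT (0.89) and Batf3 KO (1.02) Zbtb46-GFP+ cells, but was not called without any one of the 4 Zbtb46-GFP+ arrays compared. The 6 genes called in the WT step became 3 without CDP replicate 1, and the 6 in Id2 KO became 3 without CDP replicate 1, Zbtb46-GFP+ replicate 2 or replicate 3. The median of the list lay between -0.09 and 0.05 in the 3 stage steps, and no gene of the partner, regulator, inflammatory or amino acid lists passed in a CDP comparison between genotypes.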

How the data were processed

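Per the labels' protocols, RNA of sorted cells was converted to biotinylated cDNA with an Affymetrix WT Pico kit, and the submitters' processing notes name Expression Console and RMA without versions. The deposited table holds 28853 probe sets as linear signal intensity by the authors. Of these, 21789 have 1 symbol, 1621 several and 5443 none in the platform annotation, and 21698 matched RefSeq by gene ID. The probe set with the highest mean stood for each of 19938 genes. Log2 intensity was fitted with limma 3.58.1 in R 4.3.3 (6 group means, 12 arrays, 6 residual degrees of freedom, Benjamini-Hochberg adjusted p below 0.05), after a test on simulated data. The number of arrays limits the precision. Named list genes were the 4 called with the largest change per list and comparison, and most-alike genes the 3 with the highest Pearson's r. Others named for context were chosen after their values were seen. Members and lists were chosen with earlier results of these data known. Alternatives were 9 other settings and 12 omissions of 1 array. Deviations of same-numbered arrays from their group means correlated in CDP for each pair of genotypes (0.53 to 0.68) and with mixed signs in Zbtb46-GFP+ cells (-0.55 to 0.48). The labels give no pairing, and the fit has no replicate block.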

Additional observations from a re-analysis of the deposited data

How the results depend on the processing

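Of 1050 member values under 21 alternatives, 1014 kept their side of the threshold and did not clearly change direction. Uncalled values that changed sign by no more than their standard error on the 12 arrays are counted among these. Fitting all 15 arrays, whose scales differ, put the median over all genes at -0.67 to -0.70 in the stage steps, against 0.01 to 0.03 on the 12. It turned the Cebpe step in Batf3 KO to -0.0206 and gave 0 members called, against 1, in the Batf3 KO and Id2 KO steps and for Id2 KO against WT in Zbtb46-GFP+ cells. In the WT stage step, with 0 members called, a replicate block gave 2 (Cebpb, limma adjusted p = 0.0321, and Cebpe, 0.0481), the block for the brighter array 2, and a term for the 3 arrays, centring on the 75th percentile and quantile normalisation 1 each, with 2985, 4829, 2679, 2193 and 3056 of all genes called in that order, against 2212. The brighter-array block also gave 2, against 1, in the Id2 KO step (Cebpg, adjusted p = 0.0440) and for Id2 KO against WT in Zbtb46-GFP+ cells (Cebpb), and 1, against 0, for Id2 KO against Batf3 KO (Cebpe, 0.0255), as calls over all genes went from 1359 to 3234, 361 to 1212 and 118 to 506. Omitting single arrays gave 0 to 1 in the Batf3 KO step and for Id2 KO against WT in Zbtb46-GFP+ cells. Apart from the differing scales of the 15 arrays, the cause was not tested. The replicate block changed no member's call in CDP or Zbtb46-GFP+ comparisons between genotypes. Genes called in the WT step were 2212 (940 higher, 1272 lower), 1183 to 2331 under omissions and, with centring, 1197 higher and 996 lower. Omissions gave 642 to 1548 calls in Batf3 KO (1432 on 12 arrays), 488 to 1506 in Id2 KO (1359) and 120 to 357 for Id2 KO against WT in Zbtb46-GFP+ cells (361). With 2 arrays per group, intervals of member differences spanned about 0.7 log2 units or more.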
